A study of Mus musculus with 13 samples.

Results

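Ribosomal protein genes encode the proteins of the ribosome, and 83 of the 24470 genes in the deposited count table were taken as such by their symbols. The symbol had to begin with Rps or Rpl and a number, or with Rplp and a number, or be Rpsa, and S6 kinase genes, names with -ps and names ending in l were left out. By name, 31 of the 83 encode proteins of the small subunit, 43 encode proteins of the large subunit and 3 encode the P stalk of the large subunit (Rplp0, Rplp1 and Rplp2). The other 6 that the symbols brought in were the paralog Rpl22l1, the retrocopies Rps27rt, Rpl37rt and Rps23rg1, and 2 genes that encode no ribosomal protein of the cytosol by name, Rpl7l1 and Rps19bp1. The label held for the 77 remaining genes, which are all named after a subunit protein.

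The samples were E14 mouse embryonic stem cells, an established line of 129/Ola background kept in GMEM with 15% fetal bovine serum and leukemia inhibitory factor, with no genetic change or treatment in any group. In the low-input protocol, open chromatin and polyA RNA came from the same cells: Tn5 cut the open chromatin of permeabilized cells, and the mRNA was then caught on oligo(dT) beads. The mRNA libraries were made from 10000 and 20000 cells in experiment 1 and from 5000, 10000 and 20000 cells in experiment 2, the experiments being run on different days, and each had a matching ATAC library. Omni-ATAC libraries, made with another open chromatin protocol as a benchmark, came from 5000, 10000 and 50000 cells. All libraries are of 1 line, and the p-values below measure the spread between these few libraries. In the comparison of experiments each side is 1 experiment, with libraries of different cell numbers. Those p-values do not measure the spread between repeated experiments.

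Ribosomal protein genes are among the most heavily transcribed genes of dividing cells, and their products are needed in equal numbers. Most of their mRNAs begin with a C followed by a run of pyrimidines at the 5′ end, called the 5′ TOP, through which mTOR signalling and the RNA-binding protein Larp1 control their translation. Their mRNAs are short and have many processed pseudogenes in the mouse genome.

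Total counts were between 13727122 and 20426252 per library, so that 3 counts, the limit set by a count of 0, stood for 0.147 to 0.219 CPM. CPM is a gene's count divided by the library's total and scaled so that every library sums alike. No 2 mRNA libraries agreed within sampling noise (chi-square of at least 10.7 per gene for every pair). Markers of embryonic stem cells (Pou5f1, Sox2, Nanog, Zfp42, Esrrb, Dppa5a and Tdgf1) summed to 2915 to 3139 CPM, and of these only Zfp42 was called, higher in experiment 2. Of the 7 fibroblast markers, Col3a1 and Lum had no count in any library, and the sum was 31.4 and 34.9 CPM in experiment 1 against 7.54 to 10.0 in experiment 2, mostly Thy1, which fell (1 of 2 tested). The 6 primitive endoderm markers summed to 104 and 106 CPM against 55.1 to 61.7, mostly Sparc, and 3 of the 4 tested fell (Sparc, Dab2 and Gata6). The 4 neural markers summed to 22.4 and 19.8 against 31.4 to 37.4, and Pax6 rose. The 4 mesendoderm markers stayed at 0.583 to 3.68 CPM. The fibroblast, endoderm and neural sums moved with the experiment, and their part in the differences between experiments given below was not tested. In bulk RNA, fewer cells of a type and less RNA per cell cannot be told apart.

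About 1 count in 3 fell on a ribosomal protein gene. The 10000 cell library of experiment 1 had a share of 31.4% of all counts (95% Wilson interval 31.36 to 31.41), and the 20000 cell library 31.8% (31.77 to 31.82). The 5000 cell library of experiment 2 had 35.1% (35.03 to 35.08), the 10000 cell library 33.8% (33.73 to 33.78) and the 20000 cell library 31.7% (31.72 to 31.76). The intervals cover counting error only. The library of 20000 cells in experiment 2 lay within the range of experiment 1, and the other 2 libraries of experiment 2 lay above it. Of the 100 genes with the most counts in a library, 63 to 68 were ribosomal protein genes.

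**Figure D1:**
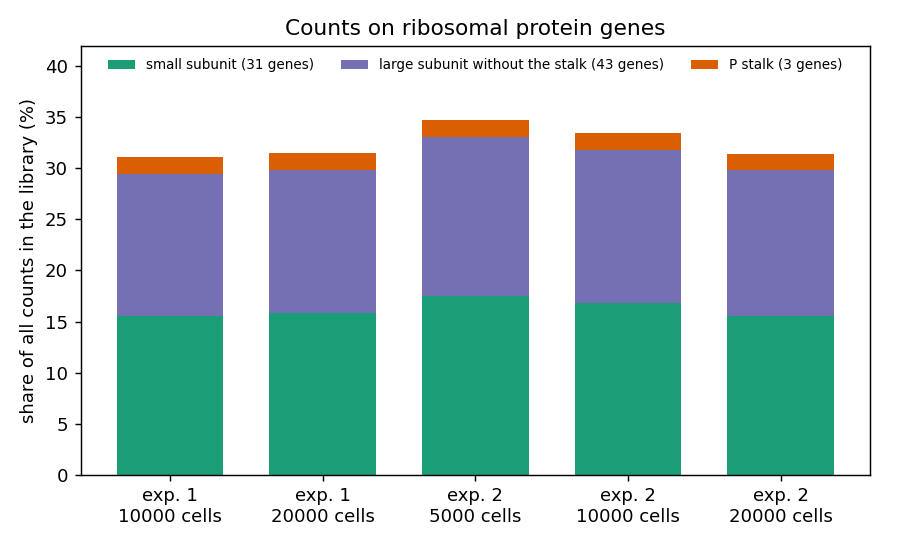
Share of all counts in each mRNA library (vertical axis, %) on genes of the small subunit, the large subunit without its stalk, and the P stalk, stacked in 1 bar per library. The bars hold close to equal parts of small and large subunit counts once the stalk is added to the large subunit, and the library of 5000 cells stands highest.

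Small subunit genes took 15.5% to 17.5% of counts and large subunit genes, the stalk included, 15.6% to 17.2%. Counts on the small subunit per count on the large subunit stayed between 0.973 and 1.01 in the 5 libraries, lowest in the library of 20000 cells in experiment 2. The P stalk proteins, which recruit the GTPases of translation, took 1.61% to 1.71%. The 3 retrocopies together took 0.127% to 0.145%.

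The mean share was 33.5% ± 1.67 (SD, n = 3) in experiment 2 and 31.6% ± 0.291 (SD, n = 2) in experiment 1, a difference of 1.93 percentage points (two-sided exact permutation test over libraries, p = 0.3, adjusted p = 0.72 over 12 tests of shares). The 10 possible splits cannot give a p below 0.1. Without the library of 5000 cells the difference was 1.16 points. The mean share of the 20000 cell libraries less that of the 10000 cell libraries was -0.801 points (31.8% ± 0.0350 against 32.6% ± 1.68, SD, n = 2 each, exact permutation p = 1, smallest possible 0.333). That sign rested on the library of 10000 cells in experiment 2: without it the difference was 0.387 points, and without the 10000 cell library of experiment 1 it was -1.99 points.

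Single ribosomal protein genes differed far more from each other than from library to library. Mean levels over the 5 libraries ran from 43.9 to 12950 CPM: 73 genes had at least 1000 CPM, 7 had 100 to 1000 and 3 had less than 100. As only 83 other genes of the table reached 1000 CPM, ribosomal protein genes made up nearly the same number as all others at that level. The levels are CPM with no correction for transcript length, so they order the genes by their counts and not by their number of mRNA molecules. The median level was 4398 CPM over small subunit genes, 2704 over large subunit genes and 5453 over the stalk genes.

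Rps12, Rpl41, Rps29 and Rps20 had the most counts. Rps12, a small subunit protein, had 12585 and 13600 CPM in the libraries of 10000 and 20000 cells of experiment 1. In experiment 2 it had 13810, 13254 and 11499 CPM, here and below in the order of 5000, 10000 and 20000 cells. Rpl41, which encodes one of the smallest proteins known, had 11444 and 12485 CPM in experiment 1 and 14611, 13301 and 12472 in experiment 2. Rps29 had 12468 and 14418 CPM in experiment 1 and 11991, 12452 and 10419 in experiment 2. The ranges of the 3 genes overlapped and their order changed between libraries: Rpl41 was highest in all 3 of experiment 2, and Rps12 and Rps29 in 1 each of experiment 1. Rps20 had 9226 to 11882 CPM, which reached into the range of Rps12 and Rpl41.

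At the other end stood 2 retrocopies, 1 gene that only shares its name, and 2 genes of full subunit proteins. Rps27rt had 34.6 to 52.9 CPM and Rps23rg1 had 42.2 to 49.7. Rps19bp1, which encodes a protein that binds Rps19, had 109 to 191. Rpl29, a large subunit protein, had 65.7 and 64.4 CPM in experiment 1 and 83.6, 76.4 and 85.4 in experiment 2. Rps6, the small subunit protein that S6 kinases phosphorylate, had 162 and 129 CPM in experiment 1 and 190, 163 and 182 in experiment 2. Rpl29 and Rps6 thus lay far under the median of their own subunits. Other subunit genes under 1000 CPM were Rps3a1 (252 to 380), Rpl15 (409 to 701), Rpl27a (523 to 661) and, just under that line, Rpl5 (949 to 1061).

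These levels are uncertain where copies of a gene share its reads. RefSeq names 319 pseudogene loci (symbols with -ps) after 63 of the 83 genes, with 24 for Rpl31 and 23 for Rps12, and Rpl29 and Rps6 have 5 and 4. How reads that map to several places were counted is not given in the sources used here. The retrocopy Rpl37rt had 13.2 to 15.4 counts per 100 counts of Rpl37, Rps27rt had 0.579 to 0.721 per 100 of Rps27 and Rps23rg1 had 1.11 to 1.22 per 100 of Rps23. Reads of these copies and of their source genes may not be told apart. Several of the genes also host or overlap small nucleolar RNA genes.

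Across the 5 libraries the ribosomal protein genes varied little. The median SD of log2 CPM was 0.119 over the 83 genes, against 0.166 over the 1305 other genes of at least 100 CPM and 0.159 over the 83 other genes of at least 1000 CPM. Rpl13a (SD 0.0366) and Rpl12 (0.0373) had the smallest spread, while Rpl22l1 (0.503) and Rpl15 (0.334) had some of the largest. Rpl13a, often used as a reference gene, had 4661 to 4924 CPM.

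The promoters of these genes are known for strong, sharply placed starts. RefSeq (GRCm38.p6, the same coordinates as mm10) gave a promoter sequence, 250 bases before to 50 after the start, for 63 of the 83 genes, and 54 of these starts were the same base as the 5′ end in the count table, while 1 was over 50 bases away. The 6 genes below that rose between experiments or had the most counts, and Rpl18, chosen after its values were seen because no list held a peak near it, are shown from 40 bases before the start to 25 after its base. Capitals mark the longest run of C and T that touches the 25 bases on either side of the start. Rps6 is shown from 60 bases before its start to 5 after, with TCTCGCGA in capitals.
Rpl15 (chr14:18270961-18271026, minus strand): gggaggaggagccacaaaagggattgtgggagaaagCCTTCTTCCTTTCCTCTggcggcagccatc
Rps24 (chr14:24490638-24490703, plus strand): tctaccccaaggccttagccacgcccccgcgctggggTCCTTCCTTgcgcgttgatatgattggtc
Rpl13 (chr8:123102310-123102375, plus strand): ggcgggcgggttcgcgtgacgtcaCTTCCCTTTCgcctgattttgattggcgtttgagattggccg
Rpl22l1 (chr3:28805468-28805533, plus strand): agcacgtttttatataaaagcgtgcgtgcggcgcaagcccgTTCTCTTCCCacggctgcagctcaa
Rps4x (chrX:102189366-102189431, minus strand): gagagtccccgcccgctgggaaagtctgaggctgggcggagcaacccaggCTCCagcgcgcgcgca
Rps12 (chr10:23787184-23787249, minus strand): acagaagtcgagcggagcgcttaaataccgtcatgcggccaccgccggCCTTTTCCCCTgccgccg
Rpl18 (chr7:45718031-45718096, plus strand): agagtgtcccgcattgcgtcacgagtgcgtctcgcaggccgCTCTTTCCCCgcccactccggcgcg
Rps6 (chr4:86857362-86857427, minus strand): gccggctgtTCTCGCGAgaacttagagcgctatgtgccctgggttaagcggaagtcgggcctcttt

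In Rpl15 a run of 17 pyrimidines spans the annotated start, and in Rps24 a run of 9 does. In Rpl13 a run of 10 lies before the start. In Rpl22l1, Rpl18 and Rps12 the run begins 2, 2 and 9 bases into the transcript (the start being base 1), and in Rps4x the longest run near the start is 4 bases. In Rps6 the start lies in a run of 10, and TCTCGCGA begins 51 bases before the start. Annotated starts can lie a few bases from the start in use. Over the 63 promoters, 31.7% had a run of at least 5 pyrimidines that held the start base, against 8.65% of all 18204 promoters and 10.2% of the 1071 promoters of other genes of at least 100 CPM. The start base was C in 36.5%, against 13.9% and 16.7%. A run of at least 8 pyrimidines within 25 bases of the start, a feature chosen after the sequences were seen, was found in 55.6% against 23.6% and 20.8%.

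Known promoter motifs were searched on both strands of these windows, each counted on its own, and a match is a description of the letters only. The ETS type motif CCGGAAG was in 36.5% of the ribosomal protein promoters, in 11.9% of all promoters and in 26.4% of those of other genes of at least 100 CPM. TCTCGCGA, the motif linked to Zbtb33, was in 15.9%, 1.51% and 3.73%. The 10 ribosomal protein genes with it were Rpl7a, Rpl12, Rpl26, Rpl27a, Rpl35, Rps3a1, Rps6, Rps15a, Rps19 and Rps28. Rps6 and Rps3a1, among the genes with the fewest counts of their subunit, both carry it, and so does Rps28, at 9382 CPM one of those with the most. The YY1 type AAGATGGCG was in 6.35%, 1.96% and 5.23%, and the Sp1 type GGGCGG in 58.7%, 46.7% and 66.8%. The TATA box TATAAA was in 11.1%, 13% and 9.43%. The E box CACGTG that Myc binds was in 7.94%, 8.19% and 14.4%, and the Nrf1 type GCATGCGC in 3.17%, 3.66% and 7.56%, both nearer to all promoters than to those of other abundant genes.

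Open chromatin at these promoters was seen unevenly. The authors' peak lists, 1 for each ATAC library, hold positions with no height, and a gene was given a promoter peak where a peak overlapped the 1000 bp on either side of its 5′ end in the count table. Peak numbers differed widely between lists, from 9097 to 95457. In the longest list, Omni-ATAC with 50000 cells, 80 of the 83 genes had a promoter peak (96.4%, Wilson interval 89.9 to 98.8), where 61.1% of all genes and 96.8% of other genes of at least 100 CPM had one. With 20000 cells in experiment 2 the low-input protocol gave 77 genes (92.8%, interval 85.1 to 96.6), against 50.3% of all genes and 91.2% of the abundant others.

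In the shorter lists the ribosomal protein genes fell behind other abundant genes. With 10000 cells in experiment 2, 59 genes had a peak (71.1%, interval 60.6 to 79.7), against 40.5% of all genes and 80.2% of other genes of at least 100 CPM. With 20000 cells in experiment 1 it was 54 genes (65.1%, interval 54.3 to 74.4, against 37.4% and 74.7%). With 10000 cells in experiment 1 it was 41 genes (49.4%, interval 38.9 to 59.9), against 31.1% and 65.1%. With 5000 cells it was 39 genes (47.0%, interval 36.6 to 57.6), against 31.1% and 67.2%. Omni-ATAC gave 44 genes with 10000 cells (53.0%, interval 42.4 to 63.4, against 41.5% and 79.4%) and 21 with 5000 cells (25.3%, interval 17.2 to 35.6, against 18.6% and 41.7%). The share of all genes lay below the interval of the ribosomal protein genes in 7 of the 8 lists and within it in the Omni-ATAC list of 5000 cells. In the 6 shorter lists the share of other abundant genes lay above the interval of the ribosomal protein genes, and in the 2 lists with the most peaks it lay within it. Where other genes of at least 1000 CPM were taken, their share was 85.5% in that list and 92.8% in the longest, both under that of the ribosomal protein genes, and it was above theirs in the other 6 lists. It lay above the interval in 4 of these 6, and within it with 10000 cells in experiment 2 (77.1%) and with 20000 cells in experiment 1 (73.5%).

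**Figure D2:**
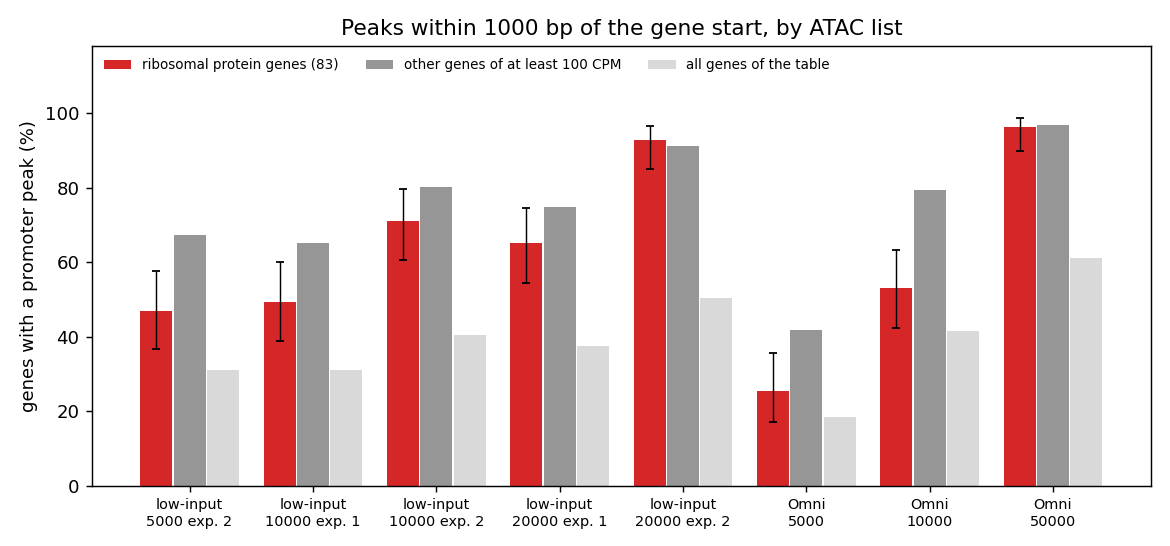
Share of genes (vertical axis, %) with a peak within 1000 bp of their start in each of the 8 ATAC lists, for the 83 ribosomal protein genes (red, with 95% Wilson intervals), other genes of at least 100 CPM (dark grey) and all genes (light grey). The red bars run from 25.3% to 96.4% and reach the dark grey bars in the 2 lists with the most peaks.

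Cutting each list to its 9097 widest peaks, the length of the shortest, left 15 to 26 ribosomal protein genes with a promoter peak in each (18.1% to 31.3%), where 18.6% to 26.1% of all genes and 41.7% to 50% of other genes of at least 100 CPM had one. In the Omni-ATAC list of 10000 cells the share was below that of all genes, 18.1% against 20.2%. This cut keeps wide peaks, and the peaks at these promoters were narrow, so it does not set list length apart from peak width. Among genes with a peak, the widest one had a median of 20 bp with 5000 cells, 19 and 98 bp with 10000 cells in experiments 1 and 2, and 20.5 and 153 bp with 20000 cells. In the Omni-ATAC lists the median was 9, 48.5 and 311 bp with 5000, 10000 and 50000 cells. Other genes of at least 100 CPM had medians of 103, 98.5, 155, 128 and 253 bp in the same low-input order and of 14, 114.5 and 439 bp with Omni-ATAC, higher in every list. The shortest peaks in the lists are 9 bp, and in the 5 low-input lists 10 to 16 of the ribosomal protein genes had no wider one. These were 13% to 34.1% of the ribosomal protein genes with a peak, near the 12.1% to 30.9% of all genes with one, and other genes of at least 100 CPM had 4.79% to 25.7%. Where only peaks of at least 50 bp were taken, the 5000 cell list kept 18 genes. The 10000 cell lists of experiments 1 and 2 then kept 20 and 36, and the 20000 cell lists kept 25 and 59. In these 5 lists that was 21.7% to 71.1% of the ribosomal protein genes, beside 16.1% to 39.1% of all genes and 38.5% to 79.8% of other genes of at least 100 CPM.

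The genes differed in how many lists held a peak. A promoter peak in all 8 lists was found for 15 genes (18.1%, where 14.8% of all genes and 35.5% of other genes of at least 100 CPM had one), among them Rps2, Rps3a1, Rps13, Rps21, Rps25, Rps27a, Rpl13a, Rpl15, Rpl22l1, Rpl27, Rpl29, Rpl37 and Rplp0. All 5 low-input lists held one for 31 genes (37.3%, against 23.4% and 54.2%). Of the small subunit genes 48.4% had a peak in all 5 low-input lists, and of the large subunit genes with the stalk 28.3%, a difference that was not tested. The order was not the same in each low-input list. The small subunit share was the lower with 10000 cells in experiment 2 (67.7% against 73.9%) and 20000 cells in experiment 1 (64.5% against 65.2%). It was the higher in the rest of these lists. At the Rplp0 start the widest peak was 52 to 484 bp in the 8 lists.

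Some genes of low level had peaks in many lists, and some of high level in few. Rpl29, with 75.1 CPM, and Rps3a1, with 312, had a peak in all 8 lists, and Rps6, with 165, in 7. Rps12, with the most counts of all, had one in 3 lists (9, 61 and 204 bp wide), and Rps24, at 6308 CPM, in 2. Rps4x, the X-linked small subunit gene, also had one in 2 lists, with 20000 cells in experiment 2 (187 bp) and in the longest Omni-ATAC list (175 bp). Rpl22 had one in the same 2 lists, and its paralog Rpl22l1 in all 8. In the longest list the peak nearest to the Rpl22 start lay 928 bp from it, while a peak spanned the Rpl22l1 start.

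No list held a promoter peak for Rpl18, Rpl37rt and Rps27rt (38.4% of all genes had none). Their nearest peaks in the longest list lay 2405, 2415 and 2053 bp away. Rpl37rt and Rps27rt are retrocopies, while Rpl18 had 2400 to 2598 CPM, a level close to the median of the large subunit genes. Rpl8, Rpl37a and Rps15 had a peak in the longest list only. Another gene's start lies within 1000 bp of 26 of the 83 starts, among them Sphk2 at Rpl18 and Nkiras1 at Rpl15, so a peak there may belong to either gene. Among the 57 other genes the shares with a peak in the 8 lists lay within the intervals given above.

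**Figure D3:**
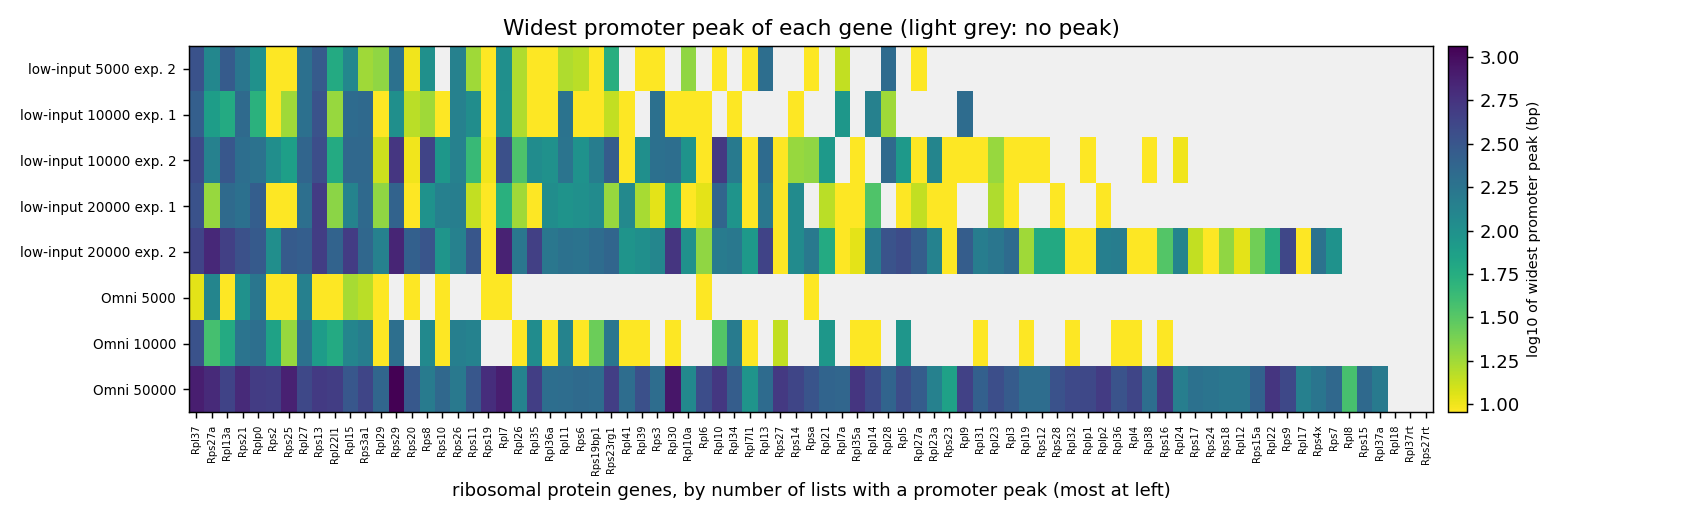
Width of the widest promoter peak (colour, log10 of bp) of 81 ribosomal protein genes (columns) in the 8 ATAC lists (rows), with light grey for no peak. The columns at the left, from Rpl37 to Rps3a1 and Rpl29, are filled in all lists, and the last 3 (Rpl18, Rpl37rt and Rps27rt) are empty.

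Between the experiments, 6 of the 83 genes rose, 5 of them genes of subunit proteins and 1 the paralog Rpl22l1, and 1 fell, Rps19bp1, which encodes no ribosomal protein. None of the 77 subunit and stalk genes was called lower. The edgeR quasi-likelihood fit on the 4 libraries of 10000 and 20000 cells tested 12523 genes, all 83 among them, with p-values adjusted over all. At the adjusted threshold of 0.05 the test called 5.75% of all genes higher and 6.76% lower in experiment 2. Before adjustment 25.7% of all genes had p under 0.05, and 16 of the 83 did. The 83 genes had a median log2 fold change of 0.04, against 0.00 over all genes tested, and 54 of them were above 0. It was 0.04 over both the small and the large subunit genes. With the library of 5000 cells added, the median was 0.13 and the counts of calls were again 6 and 1. The counts rested in part on single libraries: 10 genes were called higher and 0 lower without the 20000 cell library of experiment 2, 8 and 3 without the 10000 cell library of experiment 2, and 4 and 0 without the 10000 cell library of experiment 1.

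Rpl22l1, the paralog of Rpl22 (mm10 chromosome 3, 28805511 to 28807415), rose the most. It had 710 and 773 CPM in experiment 1 and 1490, 1439 and 1212 in experiment 2, so every library of experiment 2 lay above both of experiment 1. The log2 fold change was 0.84 ± 0.11 (SE, edgeR adjusted p = 1.4e-05). Rpl22 itself had 2563 and 2807 CPM against 2738, 2920 and 2492, and its fold change of 0.01 (95% interval -0.21 to 0.24) did not pass.

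Rpl15, of the large subunit (chromosome 14, 18267823 to 18270986), had 445 and 409 CPM against 701, 621 and 605, and rose by 0.52 ± 0.11 (edgeR adjusted p = 0.0025). Rps4x, the X-linked member of a pair whose other copy lies on the Y chromosome in primates (X, 102184941 to 102189391), had 1765 and 1752 CPM against 2334, 2231 and 2595, and rose by 0.46 ± 0.10 (edgeR adjusted p = 0.0047). In both genes the ranges of the experiments stayed apart. They and Rpl22l1 kept their call in all 12 alternatives of the fit.

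Rps24, a small subunit protein in which mutations cause Diamond-Blackfan anaemia (chromosome 14, 24490681 to 24496146), had 5194 and 5621 CPM against 7078, 7102 and 6546, a log2 fold change of 0.34 ± 0.10 (edgeR adjusted p = 0.024). Rpl13 (chromosome 8, 123102350 to 123105244) had 6723 and 6245 CPM against 8973, 8140 and 8127, a log2 fold change of 0.33 ± 0.10 (edgeR adjusted p = 0.024). Both calls were lost with cell number as a block (edgeR adjusted p = 0.065 and 0.072, with log2 fold changes of 0.34 and 0.33 as before) and without the 10000 cell library of experiment 1 (log2 fold changes of 0.28 and 0.38, edgeR adjusted p = 0.26 and 0.076), and that of Rpl13 also without the 20000 cell library of experiment 1 (0.29, edgeR adjusted p = 0.18). The gene that fell, Rps19bp1 (chromosome 15, 80260614 to 80264306), had 191 and 137 CPM against 125, 122 and 109, a log2 fold change of -0.51 ± 0.14 (edgeR adjusted p = 0.019). It was not called without the 10000 cell library of experiment 1, where the fold change was -0.25 (edgeR adjusted p = 0.48), or without the 20000 cell library of experiment 2 (-0.42, edgeR adjusted p = 0.16).

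The called subunit genes lay on chromosomes 8, 14 and X. The other genes of these chromosomes were themselves higher in experiment 2: the median log2 fold change of the non-ribosomal genes of at least 10 CPM was 0.46 on chromosome 8, 0.19 on chromosome 14 and 0.13 on X, and it was -0.26 on chromosome 15 and -0.10 on chromosome 17. Of the 9 ribosomal protein genes on 8, 14 and X, 5 were called higher (55.6%), beside 50.3% of the 159 other genes of at least 100 CPM there. Of the 62 on chromosomes other than these 5, only Rpl22l1 was called (1.61%), beside 6.11% higher and 11% lower among 998 other abundant genes. Of the 12 on chromosomes 15 and 17, Rps19bp1 was called lower (8.33%), beside 23.6% lower of the 148 other abundant genes there. Less the median of its chromosome, the log2 fold change was -0.13 for Rpl13, 0.15 for Rps24, and 0.33 for both Rpl15 and Rps4x, while Rpl22l1 kept 0.77 and Rps19bp1 had -0.25. The part of the chromosomes in these calls was not tested.

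Other members on these chromosomes were not called. On X, Rpl39 (0.28) and Rpl36a (0.24) had the sign of the median of that chromosome and Rpl10 (-0.06) did not, while the retrocopy Rps23rg1 on chromosome 8 had 0.00, and its reads may be shared with Rps23 on chromosome 13. On chromosome 15, Rpl3, a protein at the catalytic centre of the ribosome, had a log2 fold change of 0.29 (edgeR adjusted p = 0.069), opposite in sign to the median of that chromosome. Rpl39 was called without the 20000 cell library of experiment 2 (0.42, edgeR adjusted p = 0.0029). Of the other members on chromosome 15, Rpl8 (-0.11), Rpl30 (-0.06) and Rpl37 (-0.04) lay closer to 0. Without the 10000 cell library of experiment 2, Rpl3 was called higher (0.38, edgeR adjusted p = 0.018), and DESeq2 also called it (adjusted p = 0.038). On chromosome 17 all 7 members, Rpl10a, Rpl36, Rpl7l1, Rps2, Rps10, Rps18 and Rps28, had fold changes between -0.09 and 0.10.

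**Figure D4:**
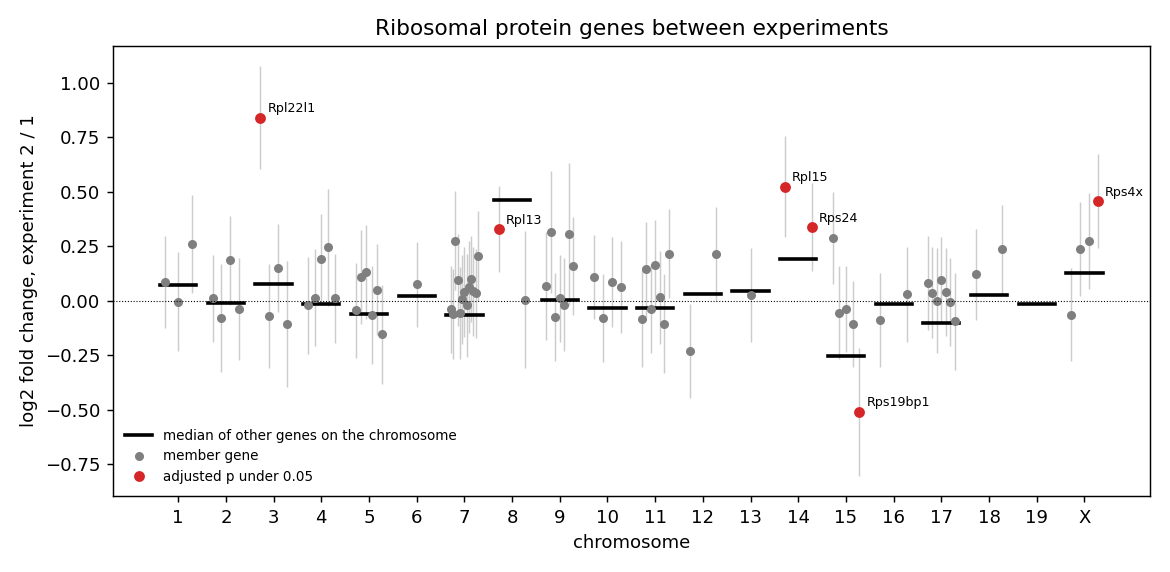
Log2 fold change of 81 ribosomal protein genes between the experiments (vertical axis, points with 95% intervals), by chromosome (horizontal axis), with the median of the other genes of each chromosome as a black bar. Red points passed the edgeR test at an adjusted p under 0.05, and apart from Rpl22l1 they lie on chromosomes 8, 14, 15 and X.

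The genes fixed for naming that were not called had narrow intervals. Rps19 and Rpsa, of the small subunit, had log2 fold changes of 0.04 (95% interval -0.16 to 0.25) and 0.16 (-0.07 to 0.38). Rps27a, which is made as a fusion with ubiquitin, had 0.22 (0.01 to 0.42, edgeR adjusted p = 0.16). Rps6 had a wider interval, at 0.24 (-0.02 to 0.51, edgeR adjusted p = 0.25), and its CPM ranges in the experiments did not overlap. Rpl5 and Rpl11, which carry the 5S rRNA and bind Mdm2, had 0.13 (-0.09 to 0.35) and -0.02 (-0.24 to 0.20). Rpl13a had -0.04 (-0.24 to 0.16). The stalk genes Rplp0, Rplp1 and Rplp2 had -0.16 (-0.38 to 0.07), 0.01 (-0.19 to 0.21) and -0.06 (-0.27 to 0.15). These intervals leave out a 2-fold change in either direction. Rps29, among the 5 highest genes, had -0.23 (edgeR adjusted p = 0.16) and was called lower without the 10000 cell library of experiment 2 (-0.36, edgeR adjusted p = 0.0095).

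Over all 5 libraries, the CPM of 29 ribosomal protein genes (34.9%) were higher in every library of experiment 2 than in both of experiment 1, where this held for 17.7% of all genes tested. For 6 genes (7.23%) they were lower in every library, where this held for 23.9% of all. The 6 were Rps19bp1, Rps29, Rpl4, Rpl8, Rpl18 and Rpl24. Most of the 29 did not pass the test of fold change, since a small difference that keeps the ranges apart counts here too.

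Between 20000 and 10000 cells no gene passed, ribosomal or other (0% of 12523 higher and 0% lower by edgeR, and 0 members also by DESeq2). This fit did not pair the libraries by experiment, so differences between the experiments were part of its spread. With experiment as a block no ribosomal protein gene was called either, and the calls of other genes under that fit are not given here. An unadjusted p under 0.05 was found for 0.807% of all genes and for 0 of the 83. The log2 fold changes of the 83 genes lay between -0.39 (Rps3a1) and 0.18 (Rpsa) with a median of -0.06, against 0.00 over all genes tested, and 18 of them were above 0. Rps3a1 had 361 CPM with 10000 cells and 252 with 20000 cells in experiment 1, and 305 and 264 in experiment 2, lower with 20000 cells in both experiments. Without the 10000 cell library of experiment 2 the median was 0.02, so its sign rested on that library.

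Set against the mean of the 2 larger inputs of experiment 2, the single library of 5000 cells had 68 of the 83 genes above 0 on the log2(CPM + 1) scale. The median difference was 0.09, against -0.05 over other genes of at least 100 CPM and -0.11 over all genes of at least 1 CPM. None of the 83 was past 2-fold, where 0.643% of genes of at least 1 CPM were 2-fold higher and 2.23% 2-fold lower. Of the 1305 other genes of at least 100 CPM, 0 were past 2-fold either, so this was shared by abundant genes. Rps3a1 (0.42), Rps13 (0.29) and Rpl11 (0.29) were the highest and Rpl3 (-0.24) the lowest. With 1 library of 5000 cells there is no replicate check.

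Paralogs of ribosomal proteins were also read as counts per 100 counts of their main genes, with no test of these ratios. Rpl22l1 had 27.7 and 27.6 counts per 100 counts of Rpl22 in experiment 1, and 54.4, 49.3 and 48.6 in experiment 2. Rpl39l, a paralog of Rpl39 known from testis and stem cells, had 5.32 and 4.71 counts per 100 of Rpl39 in experiment 1 and 1.55, 1.5 and 1.54 in experiment 2. Rps27l, which encodes a protein nearly the same as Rps27, had 59.8 and 58.7 per 100 of Rps27 against 48.2, 46.8 and 45.2. Rpl36al had 24.7 and 25.2 per 100 of Rpl36a against 20.3 to 20.8, Rpl10l had 4.80 and 4.95 per 100 of Rpl10 against 3.28 to 4.10, and Rpl3l had 0.176 and 0.159 per 100 of Rpl3 against 0.0886 to 0.118. In these 6 pairs the experiments did not overlap, with Rpl22l1 higher and the other 5 lower in experiment 2, and of the 3 retrocopies only the ratio of Rps23rg1 overlapped. For single genes, CPM did not overlap in 17.7% (higher) and 23.9% (lower) of all genes tested, and the same share for ratios was not computed. Rps27l and Rpl36al did not pass the test as single genes, and neither did Rps27 and Rpl36a.

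**Figure D5:**
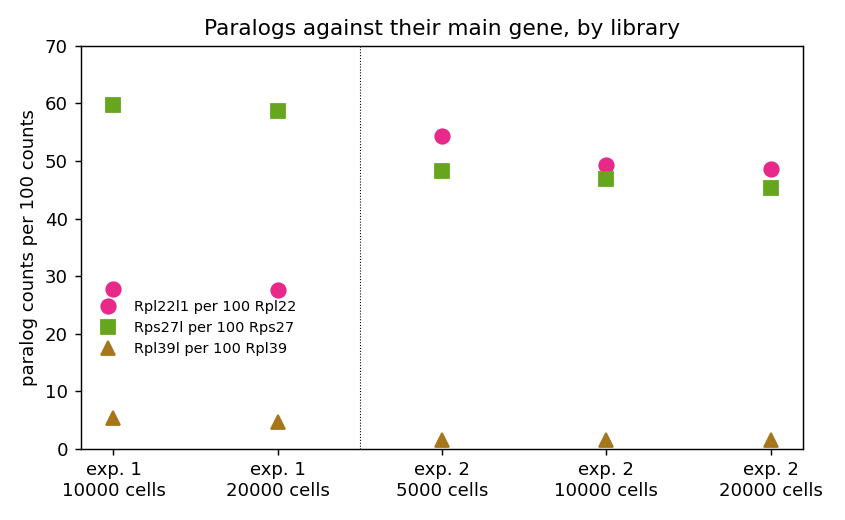
Counts of 3 paralogs per 100 counts of their main gene (vertical axis) in the 5 mRNA libraries (horizontal axis), with a dotted line between the experiments. Rpl22l1 stands at 27.6 and 27.7 in experiment 1 and at 48.6 to 54.4 in experiment 2, while Rps27l and Rpl39l are lower in experiment 2.

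Of 8 ribosomal protein genes whose symbols the rule leaves out, 1 rose and 3 fell. Over all genes tested 5.75% were called higher and 6.76% lower, and of the 1305 other genes of at least 100 CPM 146 were higher and 149 lower, which is the background for this list and those that follow. Rpl39l fell by 1.45 ± 0.13 on the log2 scale (edgeR adjusted p = 2.6e-08), from 241 and 233 CPM to 88.9, 94.0 and 79.6. Fau, a fusion of a ubiquitin-like protein with Rps30, fell by 0.34 (edgeR adjusted p = 0.030), and Rpl10l, an intronless paralog of Rpl10, by 0.47 (edgeR adjusted p = 0.024). Rack1 (0.17), Rps27l (-0.21), Rpl36al (-0.05) and Rpl3l (-0.29) were not called.

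Other genes of translation and ribosome making were read from lists, beside a median of 0.00 over all genes tested. Of 18 elongation factors and other mRNAs with a 5′ TOP, 3 rose and 1 fell, with a median of 0.12. Eef1a1, the elongation factor that brings aminoacyl-tRNA, rose by 0.68 (edgeR adjusted p = 4.6e-05), from 2704 and 2627 CPM to 3877, 4017 and 4550. Eef1g rose by 0.33 and Vim, an intermediate filament gene, by 1.45, while Pabpc1, the polyA-binding protein, on chromosome 15, fell by 0.51. Of 25 ribosome assembly factors, 3 rose (Dkc1, Nob1 and Heatr3, on chromosomes X, 8 and 8) and 5 fell, with a median of -0.19. Those that fell were Nhp2, Bop1, Nop16, Rrp9 and Sbds, on chromosomes 11, 15, 13, 9 and 5. Nhp2, of the box H/ACA particles, had 993 and 1015 CPM against 669, 673 and 718. Of 11 genes of RNA polymerase I and its factors, Polr1d fell (-0.36) and no other was called.

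Of 17 regulators, 1 rose and 2 fell. Mycn rose by 1.41 ± 0.16 (edgeR adjusted p = 1.1e-06) while Myc fell by 0.98 ± 0.17 (edgeR adjusted p = 0.00026) and Mdm2 by 0.57. Mycn had 21.6 and 25.6 CPM in experiment 1 and 62.7, 64.9 and 60.3 in experiment 2, and Myc had 55.2 and 44.6 against 25.0, 26.7 and 23.9. These transcription factors of 1 family, both known to drive ribosome genes, thus moved in opposite directions, with no overlap between the experiments. Myc lies on chromosome 15 and Mycn on 12, whose non-ribosomal genes of at least 10 CPM had medians of -0.26 and 0.03. The part of the chromosomes in these calls was not tested. The kinase genes Mtor, Rps6kb1 and Rps6kb2, the TOP regulator Larp1 and the factor genes Gabpa, Yy1, Nrf1 and Sp1 were not called.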

How the data were processed

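The authors deposited raw counts per gene for 5 polyA mRNA libraries and 8 ATAC peak lists of positions, on mm10 per the submitters' processing notes, which name STAR 2.5, featureCounts (Subread 1.5.0-p1), Bowtie2 2.1.0 and MACS2 2.1.1 without roles or settings. Counting of multi-mapped reads and strand is not given in the sources used here.

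CPM were computed from all counts of a library. The fit used edgeR 4.0.16 (glmQLFit, glmQLFTest, TMM, filterByExpr, Benjamini-Hochberg threshold 0.05) on the whole table, with SEs taken from the F statistic, and was tested on simulated data. DESeq2 1.42.0 and other size factors, filters, peak windows and left-out libraries were the alternatives. Wilson intervals are at 95%. Gene identifiers matched RefSeq for 24467 of 24470 genes.

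Experiments mark different days per the series' design text, and libraries of 1 experiment deviated together (r = 0.536 over 12523 genes), so the experiment number pairs the samples. The main fit of cell number left this pairing out, and a block for experiment was an alternative.

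The genes and lists were chosen with earlier results of these data known. Named genes are those called, the 5 highest and 5 lowest, a set list, those without a peak in the longest list and those on chromosomes 8, 14, 15, 17 and X. The 5 highest and lowest were to be ranked per kb of transcript. As the table has no lengths, mean CPM was used. Other genes named for their peaks, motifs or spread were chosen after their values were seen, and so were the alternatives that leave out members. Results of some genes are not reported here by name, though the counts over all genes include them, and the gene-by-gene plots leave them out.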

Additional observations from a re-analysis of the deposited data

How the results depend on the processing

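The 6 higher and 1 lower ribosomal protein genes between experiments were 7 and 1 by DESeq2, 9 and 1 without a filter, 4 and 1 with cell number as a block, and again 6 and 1 with other size factors. Leaving out 1 library gave 4 to 10 higher and 0 to 3 lower, and a median log2 fold change of 0.0226 to 0.1144, the lone library of an arm being assumed to vary like the others. The median moved to 0.0634 without a filter and to 0.1265 with all 5 libraries. Added after the data were seen, 1 was higher and 0 lower without chromosomes 8, 14, 15, 17 and X, and 5 and 0 with subunit genes alone. Between cell numbers no alternative called a member, the replicate block for experiment included (median -0.06, share difference -0.80 points), and without single libraries the median ran from -0.1063 to 0.0188. The share difference ran from -1.99 to 0.39 points there, its sign changing without the 10000 cell library of experiment 2, and from 1.16 to 2.82 between experiments.

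Peaks of at least 50 bp left 18 genes with 5000 cells, 20 and 36 with 10000, 25 with 20000 in experiment 1, and 5 and 22 in the Omni-ATAC lists of 5000 and 10000 cells, 12 in all 5 low-input lists and 4 in all 8. In these 2 Omni-ATAC lists that was 6.02% and 26.5%, near the 5.97% and 24.7% of all genes. Lists of equal length left 25, 26 and 25, 23 and 26 in the low-input order, 15 and 22 with Omni-ATAC of 10000 and 50000 cells, 11 in all 5 and 4 in all 8. The authors' unified list held 43 of the genes (51.8%, against 33.2% of all genes). The cause of these differences was not tested. With 2 libraries per group, small changes cannot be told from none, and peak lists without heights do not show how open a promoter was.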

Other observations

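The ribosomal proteins of mitochondria, made from nuclear genes, are a separate set whose products work with the mitochondrial rRNA. Of 78 such genes, 12 fell and 1 rose between the experiments (edgeR, adjusted p under 0.05). Over all genes tested 6.76% fell and 5.75% rose, and of the 1305 genes of at least 100 CPM outside the 83, 149 fell and 146 rose. The mitochondrial ribosomal protein genes had a median log2 fold change of -0.12. Their share of counts was 1.30% and 1.27% in experiment 1 and 1.20%, 1.16% and 1.17% in experiment 2, so that the experiments did not overlap, a difference of -0.111 points (two-sided exact permutation test over libraries, p = 0.1, the smallest the 10 splits can give, adjusted p = 0.6 over 12 tests). Mrpl9 had 181 and 156 CPM against 94.5 to 108, a log2 fold change of -0.69, and Mrps12 had 208 and 176 against 116 to 124, a log2 fold change of -0.66. Mrps16, on chromosome 14, was the one that rose, by 0.47. These values stand beside those of the cytosolic genes, of which more were higher than lower in experiment 2.

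Median GC content was 58.0% in the 63 ribosomal protein promoters, 56.3% in all promoters and 60.3% in those of other genes of at least 100 CPM. Among the 21 of the 63 genes with a peak in 7 or 8 lists the median was 59.3%, and 12 held CCGGAAG, 15 GGGCGG and 4 CTTTCC near the start. Among the 42 others it was 56.3%, and 11, 22 and 6 held them. These differences were not tested, and other promoters were not split in this way.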
